A study of Mus musculus with 4 samples.

Results

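Primary keratinocytes from Pla2g2f-/- and Pla2g2f+/+ mice were compared before differentiation was induced, on the 2 arrays of the 4 in the series whose cells had received no added calcium. Keratinocytes are the epithelial cells that build the epidermis. They were freed with 0.05% collagenase A from the whole skin of newborn C57BL/6 mice and grown for 3 days, and then for a further 48 h without added CaCl2. The other 2 arrays hold cells of the same genotypes given 1 mM CaCl2 over those 48 h. RNA from 6 mice per genotype was pooled, and each genotype and treatment is 1 array, so mouse, culture and genotype cannot be told apart. No difference has a replicate check, and no p-value is given. Every comparison asks what the null cells differ in before calcium drives them to differentiate. A level is log2 of the scanner signal relative to the 75th percentile of its own array, and a difference is the Pla2g2f-/- level minus the Pla2g2f+/+ level. A gene counts as higher or lower at 2-fold, a difference of 1 on this scale. The median scanner error of a difference was 0.20, and it covers neither cultures nor mice.

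Phospholipases A2 release a fatty acid and a lysophospholipid from membrane or extracellular phospholipids. The freed fatty acid can become a prostaglandin or leukotriene, or a ligand of PPAR nuclear receptors, and the lysophospholipid can feed signalling through lysophosphatidic acid receptors. Pla2g2f belongs to the secreted, calcium-dependent members of this family and is known from the outer epidermis. Keratinocytes of the basal layer divide and hold on to the basement membrane through integrins. On leaving it they switch keratins, and at the end they lay down a cornified envelope of cross-linked Lce, Sprr and loricrin proteins. Wounded or inflamed keratinocytes follow another course, called activation, with keratin 6 and 16, S100 proteins, antimicrobial proteins and chemokines.

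Pla2g2f itself had a level of −3.35 in Pla2g2f+/+ and −3.78 in Pla2g2f-/- cells. It was well above background on both arrays, and its difference of −0.43 (scanner error 0.23) is under 2-fold. The part of the gene that was deleted is not given in the sources used here. The array reads Pla2g2f with 1 probe, which lies on the minus strand of chromosome 4 at 138306448 to 138306507 (mm9) and contains the letters of the canonical polyadenylation signal. Where the probe lies relative to the deleted part is not known here, so its signal does not check the deletion. The 30 bases of the probe around that signal, at chr4:138306456-138306485, are shown because the reading rests on them, with the AATAAA signal in capitals.
Pla2g2f probe: cttccccaaactAATAAAaaccctcctgtc

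Of 12 secreted enzymes of the family, Pla2g2f included, 8 could be compared and 4 were dim on both arrays. Pla2g2e, which lies 0.13 Mb from Pla2g2f, went from −1.05 to 0.25 and was 2.46-fold higher in Pla2g2f-/- cells. It was the single member past 2-fold. Pla2g12a was at 1.37 and 1.17, and Pla2g3 at −5.08 and −5.73. The median of the 8 was −0.46.

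Over all genes, 992 of 21346 compared were higher in Pla2g2f-/- cells (4.65%) and 922 were lower (4.32%). The 2 sides differed in kind. Of the lower genes 397 rest on a lower bound, because the gene was not well above background in Pla2g2f-/- cells, against 162 of the higher genes. Among genes measured on both arrays 830 were higher and 525 lower, and at 4-fold 263 were higher and 66 lower over all genes compared. Of the 525 measured lower genes, 345 had a mean level under −3.59 and 27 a mean level over 1.65. The median gene had a difference of −0.18, and 67.5% of genes lay below 0, so each group of genes is read against that value. Among genes measured on both arrays the median depended on level. It was −0.4 at mean levels under −3.59, −0.14 from there to −0.9, −0.11 up to 1.65 and −0.15 above. Groups were not matched for level. For a group of dim genes, a median near −0.4 is therefore not read as a shift of that group.

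The keratinocyte base of the cultures was alike on both arrays. Krt5, a basal keratin, was at 7.22 in Pla2g2f+/+ and 7.01 in Pla2g2f-/- cells. Its partner Krt14 was at 6.58 and 6.11. Of 20 basal keratinocyte genes 0 were past 2-fold, with a median of −0.25, and the largest difference was in Trp63, the master regulator of stratified epithelium, from 3.88 to 3.04. Their summed level, on a linear scale in multiples of the array's 75th percentile, was 580 and 485. Of 29 genes of tight junctions, desmosomes and adherens junctions 0 were past 2-fold, with a median of −0.32. The plakin genes Ppl and Evpl, whose products tie desmosomes to keratin, were at 2.41 and 2.40 in Pla2g2f+/+ and at 1.44 and 1.5 in Pla2g2f-/- cells.

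Genes of DNA replication and mitosis lay slightly under the average gene. Of 32 compared, 26 were below 0, 1 was past 2-fold and the median was −0.37. The one past 2-fold was Ube2c, which directs mitotic cyclins to destruction, at −1.65 and −2.93. Mki67, the usual proliferation marker, was at −3.11 and −3.09, although its probes differed in sign. Outside the list, and picked from the largest differences, Spc24, a kinetochore subunit, was 5.31-fold lower, at −2.07 and −4.48, and the cell cycle repressor E2f7 was 4.20-fold lower, at −1.33 and −3.40. E2f2, an activator of the same family that lies near Pla2g2f, was higher, with a difference of 1.79.

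**Figure D1:**
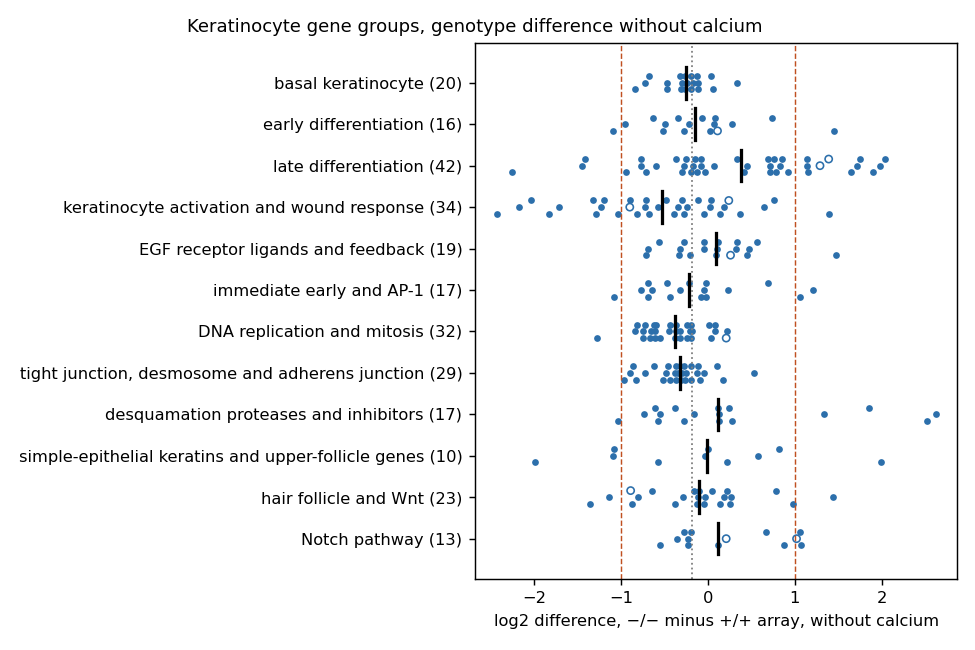
Each point is 1 gene, placed by its log2 difference between the Pla2g2f-/- and the Pla2g2f+/+ array without calcium; open points are lower bounds, black bars list medians, the dotted line the median of all genes (−0.18) and the dashed lines 2-fold, with the number of genes compared in brackets. Basal and junction genes stay within 2-fold, activation genes lean to the left, and late differentiation genes spread from −2.26 to 2.04.

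Activation genes were lower as a group in Pla2g2f-/- cells, before any calcium. Of 34 compared, 10 were lower and 1 was higher, 25 lay below 0, and the median was −0.53. With normexp background correction, or with arrays scaled to basal keratinocyte genes, 7 were lower. The S100 proteins S100a8 and S100a9 form calprotectin, which binds metals and calls in leukocytes. S100a8 was at 1.57 in Pla2g2f+/+ and −0.86 in Pla2g2f-/- cells, 5.38-fold lower, and S100a9 at 0.38 and −0.84, 2.34-fold lower. Both also stand in the list of neutrophil markers, whose defining genes Mpo, Ltf, Ngp, Cxcr2 and Retnlg were dim on both arrays. Slpi, which inhibits neutrophil elastase, was at 3.81 and 1.98, 3.57-fold lower. Lcn2, which withholds iron from bacteria, was at 4.63 and 3.34, 2.45-fold lower.

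Some secreted signals of activated keratinocytes were also lower. Il33, an alarmin released from damaged cells, was at −0.64 in Pla2g2f+/+ and −2.82 in Pla2g2f-/- cells, 4.53-fold lower. Among neutrophil chemokines, Cxcl5 was at −1.12 and −3.16 and Cxcl1 at −1.54 and −2.58, whereas the CXC and interleukin 6 list had a median of 0.24. Csf3, the granulocyte growth factor, was 6.58-fold lower, at −3.00 and −5.72. Interleukin genes of the epidermal response were lower too. Il20 was 3.30-fold lower, at the dim levels of −4.38 and −6.1, with a difference of −1.01 under normexp correction. Il19 was 2.50-fold lower, at −3.84 and −5.16, and Il1a 2.30-fold lower. Not all of the programme moved with them. Krt6a and Krt6b, the activation keratins, were lower by less than 2-fold (1.76-fold and 1.86-fold), Krt16 was at 2.95 and 2.47, and Krt17 at 6.56 and 6.44. Arg1, an arginine-degrading enzyme that macrophages also make, was the exception on the high side, at −1.96 and −0.57. Levels of S100a8, Il33, Slpi and Cxcl5 were also at least 2-fold lower in Pla2g2f-/- cells in the pair with calcium, whereas Il20 (−0.29) and Il19 (0.23) were within 2-fold there.

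Genes with agreeing probes and without a clone or model name were ranked by their measured difference. The 40 largest on the low side ranged from 3.40-fold to 9.61-fold. Of these, 11 stand in any list and 2 in a cell type marker list, against 26 and 18 on the high side. They were led by prolactin-family genes, hormone-like genes clustered on chromosome 13 and best known from placenta. Prl8a6 was at −2.69 in Pla2g2f+/+ and −5.95 in Pla2g2f-/- cells. Prl8a9 was at 0.35 and −2.48 and Prl6a1 at −1.66 and −4.47. All 11 prolactin-family genes compared, of 22 on the array, lay below 0, with 7 past 2-fold (4 with normexp background correction) and a median of −1.04. Members of this family are similar in sequence, so how the signal divides among them is uncertain.

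Genes of varied roles made up the rest. Wfdc2, a protease inhibitor of mucosal epithelia, was at −0.21 and −2.91, 6.51-fold lower. Ptx3, a soluble pattern recognition protein of innate immunity, was at 0.05 and −2.42, 5.54-fold lower. Msln, a surface protein of mesothelium, was 4.39-fold and the peptide hormone gene Cck 4.57-fold lower. Wnt7a, a ligand made in epidermis, was 4.26-fold lower, and Wnt3 and Wnt4 were 2.56-fold and 2.21-fold lower. The hair follicle and Wnt list as a whole was not lower. Of its 23 genes compared 1 was higher and 2 lower, 9 lay above 0 and the median was −0.10. Crabp1, which binds retinoic acid in the cytoplasm, was at 1.79 and −0.22. Among genes with high levels, Bcl2l15, a member of the Bcl-2 family, was at 3.80 and 1.09, 6.54-fold lower. Stmn1, which destabilises microtubules, was at 3.62 and 1.41, and Amot, which restrains the growth regulator YAP, at 2.48 and 0.68. Keratins of simple epithelia were lower as well. Krt18 was at 2.74 and 0.76, 3.96-fold lower, with its partner Krt8 2.11-fold and Krt19 2.13-fold lower, both under 2-fold when basal keratinocyte genes set the scale. Krt23 went the other way, from −3.35 to −1.36.

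Late differentiation genes were split in cells that had not received calcium. Of 42 compared, 11 were higher and 3 lower, with a median of 0.38. The division followed gene families that lie next to each other in the epidermal differentiation complex of chromosome 3. Of 13 Lce1 genes 6 were higher and 0 lower, with a median of 0.85. Lce1a1 was at −3.09 in Pla2g2f+/+ and −1.11 in Pla2g2f-/- cells, 3.96-fold higher, Lce1e at −4.15 and −2.26, and Lce1f at −5.08 and −3.04. The 6 Lce3 genes had a median of 0.74. Sprr2 genes, whose products are cross-linked into the same envelope, lay on the other side. All 9 compared were below 0, 4 were lower and the median was −0.94. Sprr2h was at 4.59 and 2.33, 4.79-fold lower, and Sprr2d at −1.5 and −2.91. Members of each family are near-identical, so the number of separate readings is smaller than the number of genes.

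Other late genes varied. Sprr4 was 3.29-fold, Asprv1, a filaggrin-processing protease, 2.23-fold and Sprr1a 2.20-fold higher. Loricrin (Lor), the main envelope protein, was at −1.35 and −1.01, and the cross-linking enzyme Tgm1 at −3.72 and −3.75. Scel, an envelope precursor, was not well above background in Pla2g2f+/+ cells and at least 2.61-fold higher, under 2-fold with normexp background correction. Of 16 genes that come on early, in the spinous layer, 1 was higher and 1 lower, and their median was −0.15. Krtdap was 2.74-fold higher and Notch3 2.12-fold lower, while Krt10, the keratin of the spinous layer, was at −2.00 and −2.07. Involucrin (Ivl) was at −3.56 and −4.51. The shedding proteases were divided in a like way. Klk6 was at −4.16 and −1.54, 6.17-fold higher, Klk7 3.61-fold and Klk5 2.54-fold higher, and Klk11 2.05-fold lower. Cst6, an inhibitor of cathepsins in the cornified layer, was at −2.27 and 0.26, 5.74-fold higher.

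In the pair with calcium the envelope families stood otherwise. All 13 Lce1 genes were below 0 there, with a median of −1.24, the 6 Lce3 genes had a median of −2.35 and the 9 Sprr2 genes a median of −3.02. All 9 Sprr2 genes thus lay below 0 in both conditions. Of the 13 Lce1 genes 11 lay above 0 without calcium, 6 of them past 2-fold, and all 13 lay below 0 with it. The difference between these pairs was not tested, since each value rests on 1 array.

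**Figure D2:**
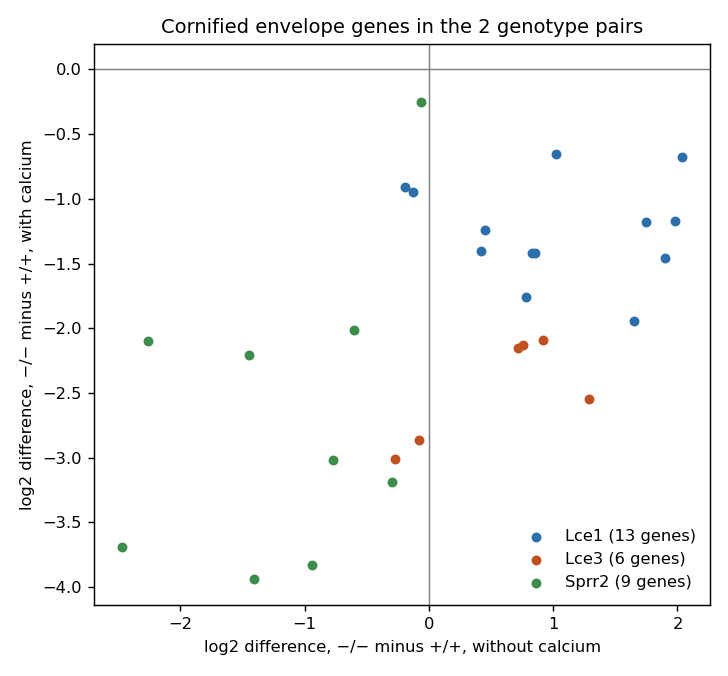
Each point is 1 gene of the Lce1, Lce3 or Sprr2 family, with its log2 difference between Pla2g2f-/- and Pla2g2f+/+ arrays without calcium on the horizontal axis and with calcium on the vertical axis. All 28 points lie below 0 with calcium, and without calcium 11 of 13 Lce1 genes lie above 0 and all 9 Sprr2 genes below it.

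Genes typical of cells other than keratinocytes stood among the largest differences. Members of the cell type marker lists made up 18 of the 40 largest on the high side, ranked as above, and 2 of the 40 on the low side. They made up 91 (9.17%) of all 992 higher genes and 12 (1.3%) of the 922 lower ones. Their share of all genes compared was not taken, so neither percentage can be read as more or less than that share. The lists were also chosen with earlier results of these data known, so these counts are a description only. In bulk RNA, fewer cells of a type and less RNA per cell cannot be told apart, and which cells carried these transcripts was not tested. Of the 18 cell type marker lists, those of mast cells, macrophages, adipocytes and brown adipocytes had medians over 1. Mast cells, which store histamine and proteases in granules, had 14 of 18 markers higher, 1 lower and a median of 2.62. Hdc, which makes histamine, was at −1.72 in Pla2g2f+/+ and 1.32 in Pla2g2f-/- cells, 8.25-fold higher. Fcer1a, a chain of the IgE receptor, was at −5.23 and −1.95, 9.72-fold higher. The receptor Mrgprb1 was 8.96-fold higher and, outside the list, the serotonin transporter Slc6a4 8.68-fold. Gata2, a transcription factor these cells need, was at −4.97 and −2.19, and Gata1 was at least 9.69-fold higher. Kit, the stem cell factor receptor that melanocytes also carry, was at −1.52 and 0.04. The 1 lower member, Il1rl1, depended on the probe. Its brightest probe had a difference of −3.00 (3.09 and 0.08), and its other 2 probes 0.36 and 0.44. Because that probe is bright, the summed level of the mast cell list differed less than its members, at 13 and 18.2 times the 75th percentile. Ms4a2 was dim on both arrays.

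The 3 genes of this list with the largest differences were the granule proteases Mcpt4 (−4.41 and 0.26), Cpa3 (−2.72 and 1.27) and Cma1 (−4.04 and −0.18). The 120 bases upstream of their starts are shown because these members are higher together, from RefSeq on GRCm38.p6, on the gene's strand, with AGATAA and TGATAA, both forms of the GATA factor motif, in capitals. They lie at chr3:20242182-20242301, chr14:56062311-56062430 and chr14:55944676-55944795, all on the minus strand.
Cpa3: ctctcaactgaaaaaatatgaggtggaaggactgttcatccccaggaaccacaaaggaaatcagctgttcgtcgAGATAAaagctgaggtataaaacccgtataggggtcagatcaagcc
Mcpt4: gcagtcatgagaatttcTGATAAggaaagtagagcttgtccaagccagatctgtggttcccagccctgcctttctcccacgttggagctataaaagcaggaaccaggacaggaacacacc
Cma1: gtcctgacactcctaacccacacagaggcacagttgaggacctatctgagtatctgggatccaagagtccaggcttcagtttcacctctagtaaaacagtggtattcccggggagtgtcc

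The stretch of Cpa3 holds AGATAA once, that of Mcpt4 holds TGATAA once, and that of Cma1 holds neither. Other forms of the GATA factor motif were not searched for. Within 250 bases upstream, on either strand, AGATAA occurred in 6 of the 17 mast cell genes with a promoter in the RefSeq table (35.3%) and in 11.4% of 27025 genes. The matched genes were Cpa3, Fcer1a, Il1rl1, Ms4a2, Rgs13 and Slc18a2. Of these only Cpa3 and Fcer1a were past 2-fold higher. Il1rl1 was the lower member, Ms4a2 was dim on both arrays, and Rgs13 and Slc18a2 were not past 2-fold. TGATAA occurred in 5 of the 17 (29.4%) and in 9.21% of all genes. Its matches were Il1rl1, Mcpt4, Mitf, Mrgprb2 and Rgs13, of which only Mcpt4 and Mrgprb2 were higher. The shares are thus those of the whole list and not of its higher members. For adipocyte genes TTGCNNAA, the C/EBP core, occurred in 4 of 13 (30.8%) and in 10.8% of all genes. For macrophage genes GAGGAAGT, a PU.1 form, occurred in 0 of 22 and in 2.79% of all genes. These are matches of letters in a window and say nothing of binding.

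Macrophages, the resident phagocytes of skin, had 21 of 28 markers higher and 0 lower, with a median of 1.85. The summed level of the list was 21.9 in Pla2g2f+/+ and 70.1 in Pla2g2f-/- cells. Cd5l, a secreted macrophage protein, had the largest measured difference of the whole comparison on the high side, 36.5-fold, at −4.69 and 0.50. Genes of tissue macrophages followed. The mannose receptor Mrc1 was at −2.12 and 0.75, 7.31-fold higher, Folr2 at −4.22 and −1.25, and F13a1 at −1.79 and 1.46. Trem2, a lipid-sensing receptor outside the list, was 8.37-fold higher. Csf1r, the receptor macrophages need for survival, was at −0.06 and 1.49, with a difference of 0.95 by the mean of its probes. Ptprc, the marker of all leukocytes, was at −4.54 and −3.66. Cybb, Timd4 and Vsig4 were dim on both arrays. Markers of other leukocytes were not higher in this way. T and natural killer cell genes had a median of −0.42 (1 higher and 1 lower of 11), neutrophil genes −0.26 (0 and 2 of 7) and B cell genes −0.32 (0 and 0 of 4). Langerhans and dendritic cell genes had a median of 0.06 (3 and 0 of 12), with Cd207 dim on both arrays.

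Complement genes were higher as well. Of 19 compared 12 were higher and 0 lower, with a median of 1.29. The 3 chains of C1q, the first recognition molecule of the cascade and a product of macrophages, were 11.6-fold (C1qc), 9.54-fold (C1qa) and 8.0-fold (C1qb) higher. C1qc was at −1.63 in Pla2g2f+/+ and 1.90 in Pla2g2f-/- cells. Later components were higher by less. C4b was at 2.09 and 3.95, 3.63-fold higher, C2 3.15-fold, C3 2.75-fold and the protease C1ra 2.67-fold higher.

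**Figure D3:**
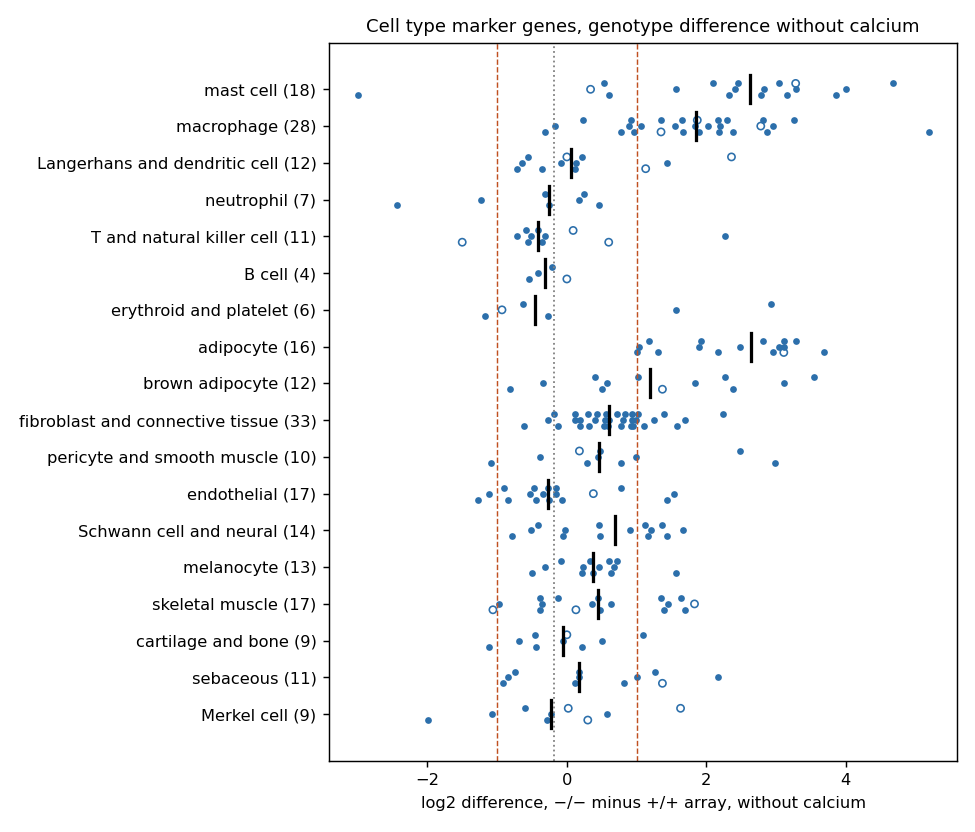
Each point is 1 cell type marker gene, placed by its log2 difference between the Pla2g2f-/- and the Pla2g2f+/+ array without calcium; open points are lower bounds, black bars list medians, the dotted line the median of all genes (−0.18) and the dashed lines 2-fold. Mast cell, macrophage and adipocyte lists have medians of 2.62, 1.85 and 2.65, while T cell, B cell, neutrophil and endothelial lists lie at or below −0.26.

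Fat cell genes were the third large group. All 16 adipocyte markers compared were higher, with a median of 2.65 and a summed level of 42.5 in Pla2g2f+/+ and 143 in Pla2g2f-/- cells. They were far from absent in Pla2g2f+/+ cells. Fabp4, a fatty acid carrier, was at 5.04 there and at 6.34 in Pla2g2f-/- cells. Pparg, the regulator of fat cell formation, was at 0.57 and 2.74, 4.49-fold higher. The adrenergic receptor Adrb3 was at −2.56 and 0.48, 8.22-fold higher, and the hormone gene Retn at −1.48 and 1.34, 7.04-fold higher. Lep was dim on both arrays. Of 12 brown adipocyte genes 7 were higher and 0 lower, with a median of 1.19. Cox8b was at −2.91 and 0.64, the channel gene Kcnk3 at −4.44 and −1.32, and Cox7a1 at −1.33 and 0.50. The defining brown fat gene Ucp1 was dim on both arrays.

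Connective tissue genes were higher by less. Of 33 fibroblast markers 7 were higher and 0 lower, with a median of 0.60, and their summed level was 293 and 435. With arrays scaled to basal keratinocyte genes 15 were higher, and 13 with the median gene set to 0. Eln, the elastin gene, was at −3.49 and −1.25, 4.71-fold higher, Mfap4 3.22-fold, Col14a1 2.98-fold and Col3a1 2.16-fold higher. Aspn, which encodes the matrix proteoglycan asporin, was 8.79-fold higher. Of 10 pericyte and smooth muscle genes 2 were higher and 1 lower, with a median of 0.45. The higher ones were Cnn1, at −3.44 and −0.45, and Acta2, at 1.66 and 4.13, and the lower one was Notch3. Schwann cell genes had 6 of 14 higher and skeletal muscle genes 6 of 17. Endothelial genes had a median of −0.27, with 2 of 17 higher and 2 lower, and melanocyte genes a median of 0.37 with 1 of 13 higher.

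Lipid genes were higher mainly in storage and oxidation. Of 35 genes of fatty acid synthesis and storage 18 were higher and 0 lower, with a median of 1.00. Cidec, which fuses lipid droplets, was at 0.35 in Pla2g2f+/+ and 3.30 in Pla2g2f-/- cells, 7.74-fold higher. The droplet coat genes Plin5, Plin1 and Plin4 were 5.64-fold, 5.59-fold and 4.14-fold higher. Pnpla2, the first lipase of stored fat, was at 2.76 and 4.71, and Lpl, which frees fatty acids from lipoproteins, at 4.16 and 5.68. Acacb, an acetyl-CoA carboxylase, was 5.80-fold higher. Of 28 PPAR targets and oxidation genes 13 were higher and 0 lower, with a median of 0.95. The coactivator Ppargc1a was 5.19-fold higher, and Angptl4, a PPAR target that inhibits Lpl, was at 3.55 and 4.71. Several of these genes are also adipocyte markers, and the adipocyte list differed between the arrays beside them, a relation that was not tested. Cholesterol and barrier lipid genes differed by less. Of 25 genes of cholesterol synthesis and uptake 1 was higher, the exporter Abcg1, and the median was −0.28. Of 25 genes of barrier ceramides and sterols 1 was higher and 2 lower, with a median of 0.00. Those lower were Nipal4, at −3.62 and −5.0, and Sdr9c7, at least 2.30-fold lower, which was −0.57 with normexp correction. Both are genes of inherited ichthyosis.

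**Figure D4:**
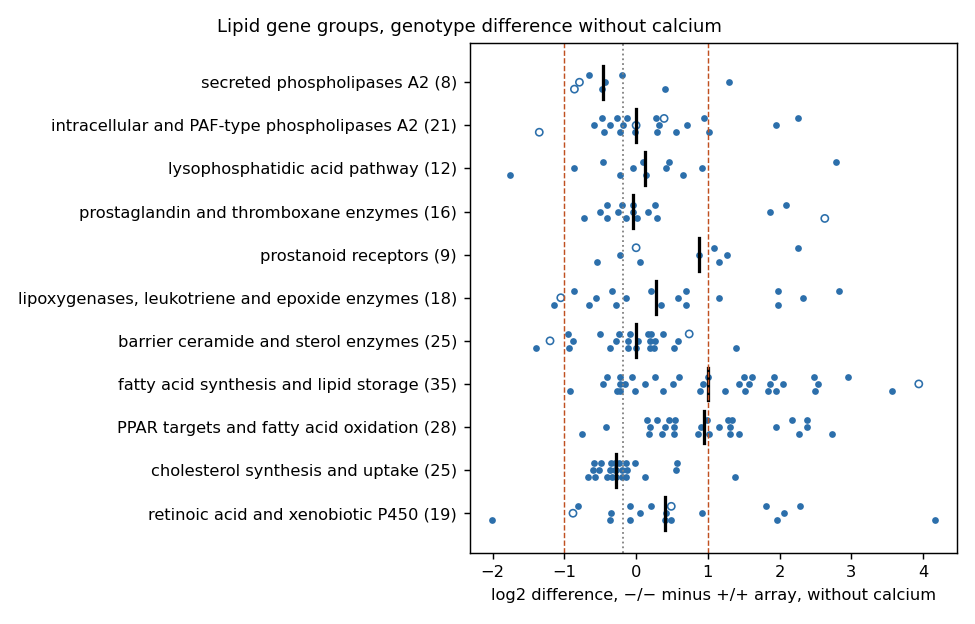
Each point is 1 lipid gene, placed by its log2 difference between the Pla2g2f-/- and the Pla2g2f+/+ array without calcium; open points are lower bounds, black bars list medians, the dotted line the median of all genes (−0.18) and the dashed lines 2-fold. Storage and oxidation genes have medians of 1.00 and 0.95, and secreted phospholipases and cholesterol genes of −0.46 and −0.28.

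The routes that make and use the products of phospholipase A2 held higher genes at several steps. Of 21 intracellular and PAF-type phospholipases A2, 3 were higher and 1 lower, with a median of 0.00. Pla2g7, the plasma enzyme that breaks down platelet-activating factor, was at −1.43 and 0.82, 4.76-fold higher, and the lower one, Pla2g4d, was not well above background in Pla2g2f-/- cells and at least 2.55-fold lower, under 2-fold with normexp correction or quantile scaling. In the lysophosphatidic acid pathway Enpp2, the enzyme autotaxin that makes the mediator, was at 1.49 and 4.28, 6.94-fold higher. The receptor gene Lpar5 was at −3.24 and −5.0, 3.40-fold lower, whereas its difference with calcium was 0.10. The median of these 12 genes was 0.12.

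Enzymes of prostaglandin synthesis had a median of −0.05, with 3 of 16 higher and 0 lower. The cyclooxygenase genes Ptgs1 and Ptgs2 were within 2-fold, at −0.13 and −0.86 and at 1.73 and 1.69. The higher ones were the prostaglandin D2 synthases Hpgds (4.27-fold), which mast cells use, and Ptgds (3.63-fold), and thromboxane synthase Tbxas1 (at least 6.17-fold, with a log2 difference of 0.43 by the mean of its probes), a macrophage and platelet gene. Of 9 prostanoid receptors 4 were higher and 0 lower, with a median of 0.88. Ptger3, a receptor for prostaglandin E2, was at −2.50 and −0.25, Ptgfr at −2.66 and −1.39, Ptgir at −0.69 and 0.47 and Ptger2 at −4.28 and −3.19. Lipoxygenase, leukotriene and epoxide genes had 5 of 18 higher and 2 lower, with a median of 0.28. Ephx2, an epoxide hydrolase, was at −0.39 and 2.44, and Alox5ap, which presents arachidonic acid to 5-lipoxygenase, at −2.97 and −0.65. The leukotriene-processing genes Dpep2 and Ggt5 were each 3.94-fold higher, the probes of Ggt5 differing in sign, and Ltc4s, the leukotriene C4 synthase, was 2.22-fold higher. The epidermal gene Aloxe3, which serves the barrier, was lower by less than 2-fold (1.82-fold). Alox12e was 2.21-fold lower and Cysltr2 had a difference of −1.05, both under 2-fold with normexp correction (−0.72 and −0.53). Hpgds is also a member of the mast cell list, and the level of that list differed between the arrays beside these genes.

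Detoxifying and retinoid genes held some of the larger differences. Of 23 glutathione transferases and NRF2 targets 7 were higher and 1 lower, with a median of 0.21. Gpx3, an extracellular peroxidase, was at −3.00 and 0.09, 8.52-fold higher, and Gsta3 at −2.71 and −0.08, 6.20-fold higher. Txnrd1, a classic NRF2 target, was at 3.87 and 3.01. Of 19 retinoic acid and xenobiotic P450 genes 5 were higher and 1 lower, with a median of 0.40. Cyp2e1, a P450 of ethanol and small solvents, was at −1.31 and 2.86, 18-fold higher. Aldh1a1, which makes retinoic acid, was 3.88-fold and Dhrs3, which reverses an earlier step, 3.50-fold higher, opposite to Crabp1. Of 32 interferon-stimulated genes 6 were higher and 0 lower, with a median of 0.52. The count was 3 with normexp correction and 9 with basal keratinocyte scaling. Oasl1 was at −3.86 and −2.11, Oas2 3.17-fold and Rsad2 2.99-fold higher, though Rsad2 had a difference of 0.66 with normexp correction.

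Chemokines and growth factors were divided. The CXC and interleukin 6 list had 3 of 14 higher and 1 lower, with a median of 0.24 and 7 genes above 0. Cxcl5 and Cxcl1, named above, are not members of it. Cxcl13, which draws B cells, was at −3.13 and −0.37, 6.80-fold higher, and Cxcl12 2.50-fold higher, and the lower member was Csf3. Of 15 CC chemokines 6 were higher and 2 lower, of which 3 and 1 were measured on both arrays. Ccl8 was at 0.53 and 2.34 and Ccl3 at −3.91 and −1.78, whereas Ccl6 was at 1.18 and −0.48, 3.17-fold lower, with a difference of 0.77 in the pair with calcium. Igfbp3, which binds insulin-like growth factors, was at 0.29 and 2.23, 3.85-fold higher, and Igfbp5 3.14-fold higher. Igf1 was at −0.73 and 1.46 by its brightest probe, and 1 of its other 4 probes had a difference of −0.24. Of 17 matrix metalloproteinases and inhibitors 5 were higher and 2 lower. The lower ones, Mmp3 (2.88-fold) and Mmp10 (2.44-fold), are made by wounded tissue. Mmp2 and Mmp11, genes of stroma, were 2.16-fold and 2.75-fold higher.

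Genes near Pla2g2f were also read by their position. Within 5 Mb on either side of its probe 185 genes were compared, and 17 were lower (9.19%) and 10 higher (5.41%). On the rest of chromosome 4 the shares were 5.23% lower and 3.92% higher, among 1147 genes. Of the 17 lower genes 12 were measured on both arrays and 11 were also lower with calcium. They lie on both sides of Pla2g2f, from Cep85 (−4.58 Mb) through Stmn1 (−4.28 Mb) and Ncmap (−3.38 Mb) to Rsg1 (2.47 Mb) and Pdpn (4.55 Mb). Ncmap was lower by both of its probes, −2.38 and −2.34. The 2 probes of Stmn1 differed in size, −2.21 and −0.83. The 10 higher genes include the C1q cluster, at −1.87 to −1.85 Mb, Pla2g2e, at 0.13 Mb, and Padi2, a deiminase gene, at 2.20 Mb, and all 10 were also higher with calcium. In windows of 5 Mb along the chromosome that hold at least 20 genes, the share of lower genes ran from 0% to 16.7%, and it was 10.8% and 7.23% in those on either side of Pla2g2f.

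**Figure D5:**
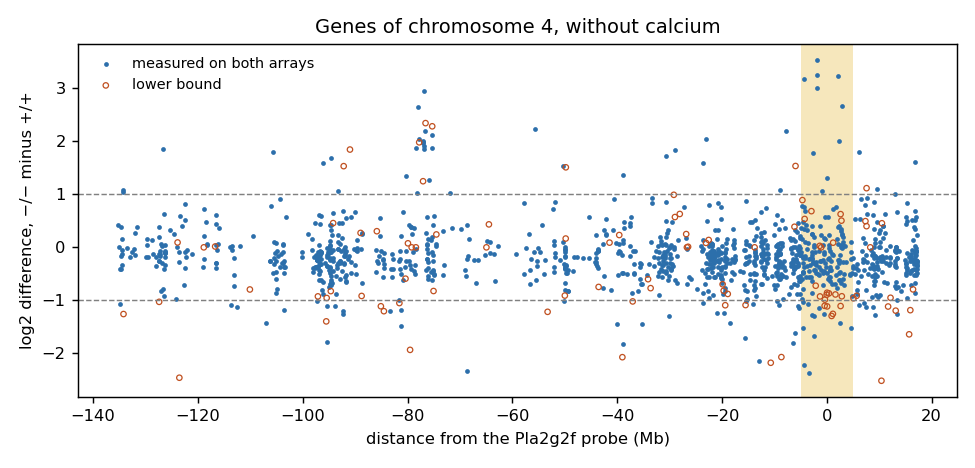
Each point is 1 gene of chromosome 4, with its distance from the Pla2g2f probe in Mb on the horizontal axis and its log2 difference between the Pla2g2f-/- and the Pla2g2f+/+ array without calcium on the vertical axis; open points are lower bounds, the dashed lines 2-fold, and the shaded band covers 5 Mb on either side. The band holds 17 lower and 10 higher genes of 185.

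The pair of arrays with calcium shares no array with the pair without it, though whether both came from the same mice is not given in the sources used here. With calcium 6.55% of genes were higher in Pla2g2f-/- cells and 3.05% lower. Of the 793 genes higher without calcium and measured on all 4 arrays, 708 (89.3%) were also higher with calcium, which is 63.8% of the 1109 higher there. Of the 502 lower genes 186 (37.1%) were also lower with calcium, which is 38% of the 490 lower there. Of the 40 largest differences on the low side, ranked as above, 37 were past 2-fold the same way with calcium, and all 40 on the high side were. The exceptions were Lpar5 (0.10), Zfp369 (−0.57) and Prss16 (−0.96). In all, 222 genes were past 2-fold without calcium and under 1.5-fold with it, 25 of them higher and 197 lower. Differences across the 19227 genes measured on all 4 arrays had Pearson r = 0.839 and Spearman rho = 0.731, a description across genes that share arrays and pools.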

How the data were processed

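Total RNA (200 ng per array, pooled from 6 mice per genotype) was measured on 4 Agilent 1-colour arrays. The deposited scanner files hold an intensity, background-subtracted within each array and not scaled between arrays, which came from Agilent Feature Extraction 11.5.1.1, per the file headers and the submitters' processing notes. The deposited value table is a linear ratio, which the authors formed as signal over the array's 75th percentile. Recomputed, it differed by at most 0.00058 in relative terms.

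Outlier spots (105 to 116 per array) were dropped, log2 was taken and the array's 75th percentile of non-control spots subtracted. Percentiles were 2638 and 2889 for Pla2g2f+/+ and Pla2g2f-/- without calcium, where 67.0% and 67.3% of 39426 probes were well above background. Of these probes 27507 were named through their accession. Repeat spots of a probe had an SD of 0.07. A gene was read from its brightest probe and compared unless it was dim on both arrays. If dim on 1 of them, the difference is a lower bound against the higher of its own value and that array's limit (−6.07 and −6.54). No test was possible with 1 array per group.

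Genes named are members of 59 lists (1204 entries, 13 not found), the 40 largest measured differences and 10 largest bounds per direction, without clone or model names and with agreeing probes, and genes within 5 Mb of Pla2g2f. Those with a known role are named, and a few genes of this rule are not reported here. Members and lists were chosen with earlier results of these data known. The code was tested on simulated data. Alternatives are given in the closing section. Software was Python 3.11.15, numpy 2.4.6, pandas 2.3.3, matplotlib 3.10.9, R 4.3.3 and limma 3.58.1. Promoters are from RefSeq (GRCm38.p6), and probe positions are on mm9.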

Additional observations from a re-analysis of the deposited data

Results flagged for a closer look

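Of 19227 genes measured on all 4 arrays, 7 were at least 2-fold higher in Pla2g2f-/- cells without calcium and at least 2-fold lower with calcium, and 0 the other way round. In each case the difference between the pairs was not tested, since every value rests on 1 array. Of these, 5 lie in the epidermal differentiation complex. Lce1a1 had differences of 1.98 without and −1.17 with calcium, Lce1e of 1.90 and −1.46, Lce1b of 1.75 and −1.18, Lce1d of 1.65 and −1.94, and Kprp, a keratinocyte proline-rich protein, of 1.14 and −1.45. In Pla2g2f+/+ cells the level of Lce1d was −3.10 without and 1.75 with calcium, and in Pla2g2f-/- cells it was −1.44 and −0.19. Both levels of Pla2g2f-/- cells lay between the 2 levels of Pla2g2f+/+ cells, for this gene and for the other 6. The rule that picked the 7 genes sets 1 of the 2 bounds of each such level in advance. With normexp correction the 4 Lce1 genes stayed past 2-fold in both pairs, and Kprp had 0.89 and −1.41. The other 2 have no known role. The gene model Gm7897 had 1.15 and −1.33, and an unnamed transcript on chromosome 4 had 1.06 and −1.19. With normexp correction they had 0.68 and −1.16, and 0.44 and −0.85.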

How the results depend on the processing

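The counts of 992 higher and 922 lower genes depended on the processing, the lower count the more. They were 654 and 188 with normexp correction and 461 and 158 at 3-fold. Lower genes numbered 400 with quantile scaling, 387 with scaling to basal keratinocyte genes, 502 with the median gene at 0, 525 among genes well above background on both arrays and 2982 with no filter. Higher genes made up 51.8% of those past 2-fold, against 77.7% with normexp correction, 74.4% with quantile scaling, 78.5% with basal scaling, 71.6% with the median gene at 0, and 30.9% with no filter. Of 316 named or listed genes past 2-fold 245 were so under all 9 settings of background, scaling, probes and filter, and 57 were under 2-fold with normexp correction. Of genes named in the activation group, Cxcl1, Il19 and Il1a were among the latter; Klk5, Klk11, Krt19 and Ptger2 were too. S100a9, Notch3, Krt8 and Wnt4 were under 2-fold with basal scaling. The 80 largest measured differences among genes with agreeing probes were past 2-fold under each, which that choice favours for the mean of probes. Il1rl1, left out of that ranking, went from −3.00 to −0.74 with it. With the mean of its probes Gstm3 turned from 1.39 to −0.25 and Psmb9 from 1.05 to −0.05, each through a dim second probe. Over the 9 settings the activation median ran from −0.53 to −0.28, Lce1 from 0.66 to 1.1, Sprr2 from −0.94 to −0.66, macrophage from 1.67 to 2.10 and adipocyte from 2.29 to 2.90. Early differentiation, immediate early and ribosomal protein medians changed sign with basal scaling. No paired analysis was possible because each group is 1 array, and for the same reason no array could be left out.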

Other observations

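Genes of blood and liver-type secreted proteins, in no group above, also differed without calcium. They were chosen after their values were seen. The erythroid and platelet list as a whole had a median of −0.45, with 2 of 6 genes higher and 1 lower. The adult globin genes Hba-a1 (−3.04 in Pla2g2f+/+ and −0.12 in Pla2g2f-/- cells) and Hbb-bt (−5.15 and −2.35) were 7.54-fold and 6.92-fold higher, while the embryonic globin Hbb-bh1 was 2.26-fold lower and the red cell membrane gene Epb42 was dim on both arrays. Major urinary proteins carry pheromones and are made in liver and other tissues. Of 10 Mup genes compared 9 were higher, with a median of 1.94, and Mup20 was at −4.15 and −1.96. They form a cluster on chromosome 4 far from Pla2g2f, and their near-identical sequences leave their number uncertain. The acute-phase genes Orm1, Orm2 and Orm3 were 3.67-fold, 4.34-fold and at least 4.86-fold higher.

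Housekeeping groups were close to the average gene. All 30 ribosomal protein genes lay between −0.27 and −0.07, and 25 genes of the mitochondrial respiratory chain had a median of 0.03, with 0 past 2-fold in either group. U90926, a clone-named transcript that the naming rule leaves out, had the largest measured difference on the low side, 15.6-fold, at −2.01 and −5.97.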
